A study of Mus musculus with 6 samples.

Results

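The genes described here encode 8 enzymes and partner proteins that make or inactivate prostaglandins and leukotrienes, and they are 8 of the 32285 genes in the deposited feature lists: Ptgs1, Ptgs2, Ptges, Hpgds, Hpgd, Alox5, Alox5ap and Ltc4s. They were chosen by name, for their place in the pathway, with earlier results of these data known. Each matched 1 row of the lists. Live CD45+ leukocytes had been sorted from the kidneys of C57BL/6J mice aged 8 weeks and put through droplet 3' single-cell RNA sequencing. The control group has 3 libraries, and the other group has 3 from mice whose acute kidney injury followed rhabdomyolysis, in which skeletal muscle breaks down. The labels give no genetic change, and the agent that caused the rhabdomyolysis, the time after injury, and whether a library holds cells of 1 mouse or of a pool are not given in the sources used here. Where libraries of a group are not separate mice, the p-values below cover only how far libraries differ, and that can be technical.

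Prostaglandins and leukotrienes are short-lived lipid signals made from arachidonic acid that phospholipases release from membranes. Cyclooxygenases turn the acid into prostaglandin H2, and terminal synthases turn that into single prostaglandins, which kidney cells use to set blood flow and which leukocytes use to start and to end inflammation. The 5-lipoxygenase branch makes leukotrienes, which attract neutrophils and make vessels leak. Hpgd encodes 15-hydroxyprostaglandin dehydrogenase, the enzyme that starts the breakdown of prostaglandin E2, so cells with it remove the signal.

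The libraries held 10816727 to 22656666 unique molecular identifiers (UMIs, counts of captured RNA molecules) in genes, and 12159 barcodes were kept as cells. Control libraries kept 2196 to 3352 cells and rhabdomyolysis libraries 934 to 1471, with median UMIs per cell of 3547.5 to 3758 and 4398.5 to 5944. The share of called barcodes left out for too little Malat1, an abundant nuclear RNA, was 10.2% to 19.2% in control and 20.4% to 47.4% in rhabdomyolysis libraries, highest in rhabdomyolysis library 3. Any 2 libraries shared at most 6 cell barcodes. Cells were placed in classes by the UMIs of marker genes, and none of the 8 genes is a marker. The control libraries held 1654, 1436 and 978 macrophage-like cells and the rhabdomyolysis libraries 381, 636 and 435. Monocyte-like cells numbered 36, 21 and 23 against 169, 235 and 358, of which 14, 6 and 8 against 139, 203 and 275 carried the markers of classical monocytes. Dendritic-like cells numbered 175, 165 and 110 against 25, 51 and 81, and neutrophil-like cells 12, 10 and 9 against 100, 135 and 137. Lymphoid-like cells numbered 1269, 923 and 908 against 162, 227 and 335. By mean level, genes outside the marker lists mostly went with the names. C3ar1 was highest in macrophage-like cells, Lyz2 in monocyte-like cells, Cd74 in dendritic-like cells, Slpi in neutrophil-like cells and Il7r in lymphoid-like cells. Itgam, checked for monocyte-like cells, went the other way. Its mean was 284.2 counts per 1000000 UMIs of the class in monocyte-like and 489.8 in neutrophil-like cells. Cd74 ranged from 33460 to 47080 in dendritic-like and from 3676 to 49970 in macrophage-like cells, so these classes overlapped. In 3.41% of macrophage-like, 9.39% of dendritic-like and 12.1% of monocyte-like cells the share of markers detected lay within 0.1 of that of a type from another class. Nearness to another type of the same class was not counted.

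The promoters of 3 of the genes are shown, the only ones in which a searched motif matched. Among the leukocyte classes Ptgs1 and Hpgds were at their highest mean in macrophage-like cells, and Ptgs2 in neutrophil-like cells. Each sequence is the 250 bases before the RefSeq start site in GRCm38.p6, written 5′ to 3′ on the strand of the gene, with capitals where a searched motif matched. The windows are chr2:36230176-36230425 on the plus strand for Ptgs1, chr6:65144731-65144980 on the minus strand for Hpgds and chr1:150099781-150100030 on the plus strand for Ptgs2. RefSeq windows were found for 7 of the 8 genes, all but Alox5ap. The windows of Ptgs1 and Hpgds lie inside the annotated spans of their genes.
Ptgs1: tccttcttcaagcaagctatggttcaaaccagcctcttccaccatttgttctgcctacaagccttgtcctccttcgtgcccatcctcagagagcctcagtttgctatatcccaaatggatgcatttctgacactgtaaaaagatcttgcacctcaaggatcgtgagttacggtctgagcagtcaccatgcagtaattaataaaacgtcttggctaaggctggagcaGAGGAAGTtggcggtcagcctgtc
Hpgds: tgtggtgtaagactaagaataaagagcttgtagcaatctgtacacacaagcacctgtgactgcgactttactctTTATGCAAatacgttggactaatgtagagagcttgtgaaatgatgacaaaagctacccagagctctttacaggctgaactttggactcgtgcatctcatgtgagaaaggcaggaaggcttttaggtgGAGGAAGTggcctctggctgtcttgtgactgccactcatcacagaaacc
Ptgs2: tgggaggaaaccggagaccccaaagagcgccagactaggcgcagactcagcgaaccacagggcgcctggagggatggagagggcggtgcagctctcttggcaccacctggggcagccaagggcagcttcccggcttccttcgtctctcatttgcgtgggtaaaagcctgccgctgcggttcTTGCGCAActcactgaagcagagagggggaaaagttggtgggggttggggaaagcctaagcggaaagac
The searched motifs, on both strands, were the TATA box (TATAAA), the E-box (CACGTG), the core of C/EBP sites (TTGCNNAA), the core of PU.1 sites (GAGGAAGT), the AP-1 site (TGANTCA) and the NF-kB site. Both Ptgs1 and Hpgds hold GAGGAAGT, 24 to 17 and 49 to 42 bases before the start, a match that 2.44% of the 32851 windows of this length hold. PU.1 is the factor that macrophages and other myeloid cells depend on. Ptgs2 holds TTGCGCAA 69 to 62 bases before its start and Hpgds holds TTATGCAA 176 to 169 bases before, matches to the C/EBP core that 9.56% of windows hold. C/EBP factors act in neutrophils and in inflamed cells. The windows of Hpgd, Ptges, Alox5 and Ltc4s held none of the 6 motifs in these letters. Yet Hpgd and Ltc4s, too, had their highest mean in macrophage-like cells, and Alox5 had its highest mean in neutrophil-like cells. A match is a string of letters, and binding was not measured here.

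The genes divided by where their UMIs lay. In control libraries, macrophage-like cells held 90.1% of the UMIs of Hpgds, 88.1% of those of Ptgs1, 88.03% of those of Ltc4s and 84.9% of those of Hpgd, beside 47.6% of the UMIs of all genes. Neutrophil-like cells held 45.3% of the Ptgs2 UMIs in control and 54.9% in rhabdomyolysis libraries, beside 0.2% and 3.3% of the UMIs of all genes. In control library 1 neutrophil-like cells held 18 Ptgs2 UMIs and gated cells outside the 5 classes held 21. Alox5ap, the partner protein of 5-lipoxygenase, was spread over the myeloid classes. Its macrophage-like share was 59.4% in control and 38.2% in rhabdomyolysis libraries, where monocyte-like cells held 43.0%. Lymphoid-like cells held 32.5% of all UMIs in control libraries and at most 4.3% of the UMIs of any of the genes other than Ptges, for which the control libraries held 5 UMIs in all.

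**Figure D1:**
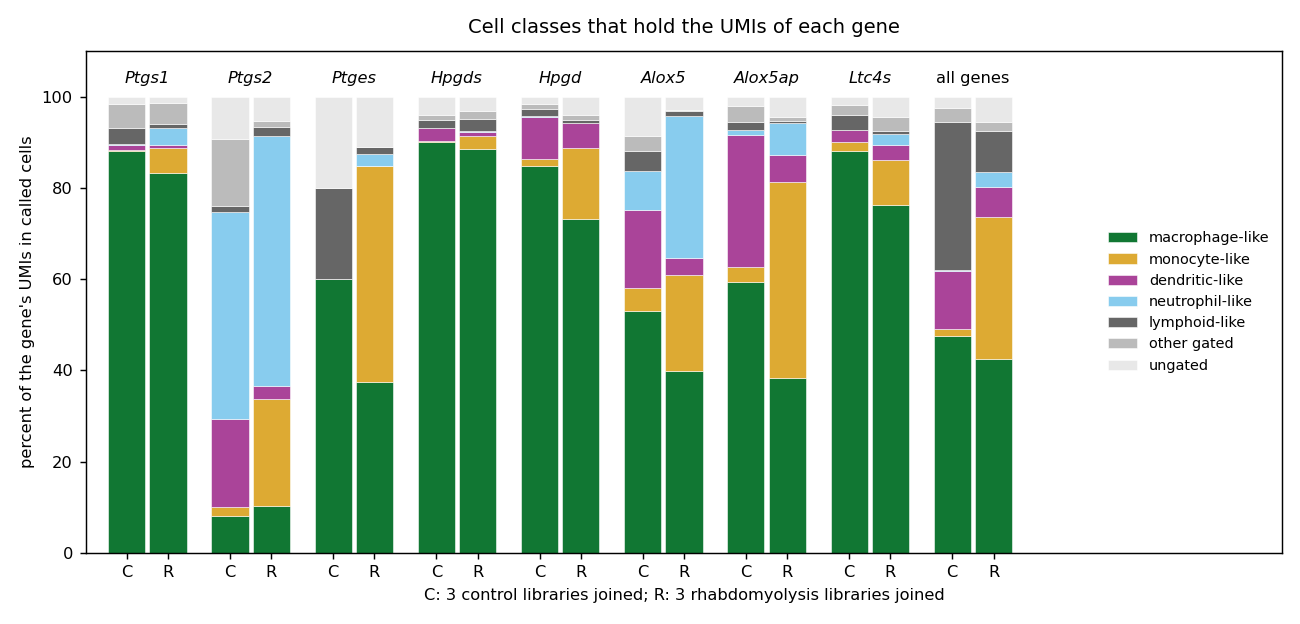
Percent of the UMIs of each gene in called cells (vertical axis) that lie in each cell class, with the 3 control libraries joined (C) and the 3 rhabdomyolysis libraries joined (R), and all genes on the right. Hpgds, Ptgs1, Hpgd and Ltc4s lie mostly in macrophage-like cells, and neutrophil-like cells hold 45.3% and 54.9% of Ptgs2; the control bar of Ptges rests on 5 UMIs.

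Across the kidney leukocytes as a whole, with no gate, 7 of the 8 genes changed between the groups in edgeR's quasi-likelihood test at a Benjamini-Hochberg adjusted p under 0.05, as did 45.9% of the 12080 genes tested. On the log2 scale Hpgd fell by 3.43 and Hpgds by 1.997. Ptges, Ptgs2, Alox5, Alox5ap and Ltc4s rose by 4.55, 3.05, 2.23, 1.998 and 1.61. For Ltc4s the adjusted p was 0.056 without control library 2 and 0.054 without control library 3, and without rhabdomyolysis library 2 the change was 0.99. Ptgs1, at -0.40, did not pass (adjusted p = 0.41). These sums mix the level per cell with the makeup of the library, and fewer cells of a type and less RNA per cell cannot be told apart in them, so the classes are taken one by one below. All adjusted p-values that follow are from the same edgeR test, adjusted over all genes tested in the class. Changes are on the log2 scale. Unless marked SD, the ± after a change is an approximate error, back-calculated from the change and its edgeR test result. It is not a directly estimated standard error, and where UMIs are few it can be smaller than counting error alone.

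Ptgs1 and Ptgs2 encode the 2 cyclooxygenases, the first made steadily in many cells and the second made on demand in inflammation. Ptgs1 in macrophage-like cells stood at 107, 114 and 49.1 counts per 1000000 UMIs of the class (CPM) in control libraries and 85.9, 39.7 and 49.2 CPM in rhabdomyolysis libraries. The groups overlapped, because control library 3 lay as low as the rhabdomyolysis libraries. The change was -0.54 ± 0.35 with an adjusted p of 0.24. In the control libraries Ptgs1 was higher in macrophage-like cells than in monocyte-like, dendritic-like, T, B or NK cells in every library. Its next class by mean was neutrophil-like cells at 0, 83.7 and 0 CPM, which rests on 2 UMIs. In endothelial cells, of which there were 55, 25 and 26 in control libraries and 16, 39 and 18 in rhabdomyolysis libraries, Ptgs1 stood at 184, 132 and 142 CPM against 170, 51.0 and 76.5 CPM, above the macrophage-like mean in the control libraries.

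Ptgs2 had its highest level in neutrophil-like cells in both groups. In neutrophil-like cells it stood at 644, 1047 and 1095 CPM in control libraries, from 18, 25 and 25 UMIs, and at 355, 365 and 797 CPM in rhabdomyolysis libraries, from 65, 123 and 233 UMIs. The ranges overlapped, and with 9 to 12 control cells a library the class was below the minimum of 20 cells for a test. With the minimum lowered to 5 cells, 0 of 3 genes tested passed in edgeR's test in neutrophil-like cells, beside 11.9% of the 1399 genes tested, and 0 had an unadjusted p under 0.05. Of the 5 classes the next by mean was the monocyte-like one, at 7.26 ± 7.23 CPM (SD, n = 3) in control libraries and 23.6 ± 3.16 CPM (SD, n = 3) in rhabdomyolysis libraries, and it overlapped dendritic-like cells in both.

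Ptgs2 rose in macrophage-like cells from a very low level. The control libraries held 2, 7 and 3 UMIs and the rhabdomyolysis libraries 27, 10 and 41, which is 0.304, 1.25 and 0.663 CPM against 9.54, 2.56 and 10.6 CPM. All 3 rhabdomyolysis libraries lay above all 3 control libraries, library 2 by the least. The change was 3.40 ± 0.64 with an adjusted p of 0.0031. The UMIs lay in 2, 3 and 2 control cells and in 16, 8 and 19 rhabdomyolysis cells, so the gene was seen in few macrophage-like cells of either group. Free RNA, which leaks into every droplet, would give 29.5% of the control and 16.5% of the rhabdomyolysis UMIs. The summed level of the 9 neutrophil markers in macrophage-like cells was 27.2 to 65.4 CPM in control and 132 to 477 CPM in rhabdomyolysis libraries, with Ly6g at 0 and the other 8 seen in both groups. In neutrophil-like cells the same sum was 102470 to 129460 CPM. The part of neutrophil RNA in this rise was not tested.

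Monocyte-like cells held 0, 1 and 2 Ptgs2 UMIs in the controls and 36, 67 and 78 after rhabdomyolysis, that is 0, 7.31 and 14.5 CPM against 22.3, 27.2 and 21.2 CPM. Every rhabdomyolysis library was higher, and the change of 2.03 ± 0.69 missed the threshold with an adjusted p of 0.053. Without control library 1, which holds none of the 3 control UMIs, it was 1.34 with an adjusted p of 0.24, and without control library 3, which holds 2 of them, it was 3.22 with 0.036. With no filter on low counts it was 2.24 with 0.012. The makeup of the class differed between the groups. Classical monocytes held 2 control and 180 rhabdomyolysis UMIs, a ratio of summed levels of 3.11 with an exact 95% interval of 0.847 to 25.8 for counting error. Nonclassical monocytes held 1 and 1, a ratio of 0.236 with an interval of 0.00301 to 18.6. The part of the makeup in the change was not tested. The neutrophil markers moved with Ptgs2 here too, from 72.3 to 146 CPM in control and from 1640 to 4011 CPM in rhabdomyolysis libraries, with 4 and 8 of 9 markers seen. In dendritic-like cells the ranges overlapped, at 3.97, 10.1 and 5.42 CPM against 45, 13.2 and 4.57 CPM. In lymphoid-like cells 2 UMIs in the control libraries stood against 16 in the rhabdomyolysis libraries, a change of 5.11 ± 0.71 with an adjusted p of 0.0011. The ratio of summed counts was 40.7 with an exact 95% interval of 9.57 to 365 that covers counting error only. That interval is wider than the ± of the change implies, so the ± understates the error here. The 16 UMIs came from 8 cells. Without any 1 library the gene no longer passed the filter on low counts, so the change has no value there. Of them, 8 were in NK-like and 4 in type 2 innate lymphoid-like cells, which held 0 in control libraries. The neutrophil markers summed to 32.0 to 35.7 CPM in control and 135 to 238 CPM in rhabdomyolysis lymphoid-like cells, and the part of this in the change was not tested.

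Ptges encodes the inducible prostaglandin E2 synthase that works beside the second cyclooxygenase. It was the rarest of the genes, with 5 UMIs in all cells of the control libraries and 72 in those of the rhabdomyolysis libraries, 2, 0 and 3 against 25, 35 and 12. The ratio of the summed levels was 20.3, with an exact interval of 8.29 to 64.3 for counting error, and in all called cells the change was 4.55 ± 0.78 with an adjusted p of 0.0017. In rhabdomyolysis libraries monocyte-like cells held 47.2% and macrophage-like cells 37.5% of its UMIs. Macrophage-like cells held 2, 0 and 1 against 10, 14 and 3 UMIs, and monocyte-like cells 0, 0 and 0 against 14, 14 and 6. In both classes every rhabdomyolysis library was above every control library, but Ptges did not pass the filter on low counts in either. The control monocyte-like cells held 487996 UMIs of all genes against 7755188 in the rhabdomyolysis libraries. With 3 counts over the group taken as the limit of 0, the rhabdomyolysis level there was at least 0.71-fold that of control, which does not show a rise. With no filter the change was 3.77 with an adjusted p of 0.00049 in macrophage-like cells and 5.79 with 0.16 in monocyte-like cells. In monocyte-like cells of rhabdomyolysis library 1, 11 of the 14 UMIs came from 1 cell, and elsewhere among monocyte-like and macrophage-like cells no cell had more than 1. Dendritic-like cells held none in any library. Ptges overlaps Gm52550 and Gm13400 in RefSeq, and whether the counting used strand is not given in the sources used here.

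Hpgds encodes the blood-cell prostaglandin D2 synthase. It fell in macrophage-like cells from 157, 174 and 126 CPM in control to 27.2, 40.2 and 37.1 CPM in rhabdomyolysis libraries. The groups were far apart, the lowest control library at 126 CPM and the highest rhabdomyolysis library at 40.2 CPM. The change was -2.04 ± 0.19 with an adjusted p of 0.0001. The gene also fell in dendritic-like cells, from 19.3, 17.6 and 19.9 CPM to 0, 3.77 and 2.29 CPM, a change of -2.85 ± 0.51 with an adjusted p of 0.0020, from 84 UMIs in control libraries and 4 in rhabdomyolysis libraries. Macrophages remained the class of its highest mean level in both groups. Monocyte-like cells held 4 UMIs in control libraries and 12 in rhabdomyolysis libraries, too few to pass the filter. By level that was 0 to 21.9 CPM against 1.22 to 1.86 CPM, with overlap. The ratio of the summed levels was 0.19, with an exact interval of 0.057 to 0.80 for counting error. Free RNA would give 54.9% of those control and 28.1% of those rhabdomyolysis UMIs. In lymphoid-like cells the ranges overlapped: 5.78, 4.14 and 2.67 CPM stood against 0, 8.86 and 4.34 CPM. The difference between the change in macrophage-like and that in lymphoid-like cells was -2.40 ± 0.63 with an adjusted p of 0.0080, in a comparison where 27.5% of genes differed. Without rhabdomyolysis library 2 this difference was -1.88 and its adjusted p 0.090.

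Hpgd had the largest fall among the genes tested in each of the 4 classes with enough cells. Macrophage-like cells stood at 884, 1043 and 941 CPM in control and at 73.5, 46.9 and 95.5 CPM in rhabdomyolysis libraries. The lowest control value was 884 and the highest rhabdomyolysis value 95.5, and the change was -3.65 ± 0.25 with an adjusted p of 3.3e-05. In monocyte-like cells the values were 441, 680 and 578 CPM against 17.9, 17.4 and 24.2 CPM, a change of -4.68 ± 0.23 with an adjusted p of 4.6e-08. In dendritic-like cells they were 318, 475 and 399 CPM against 31.5, 30.1 and 38.9 CPM, a change of -3.49 ± 0.22 with an adjusted p of 5.5e-07. The 2 groups were far apart in each of these 3 classes. The order of the classes in control libraries was macrophage-like, then monocyte-like and dendritic-like, whose ranges overlapped. In rhabdomyolysis libraries it was macrophage-like, dendritic-like and monocyte-like, with no overlap between neighbours. The difference of the change between macrophage-like and monocyte-like cells was 0.72 ± 0.23 with an adjusted p of 0.078, and between macrophage-like and dendritic-like cells -0.18 ± 0.24 with an adjusted p of 0.74.

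The makeup of the monocyte-like and dendritic-like classes differed between the groups, so Hpgd was followed in narrower types. In nonclassical monocytes it stood at 543, 763 and 664 CPM in control, from 49 to 62 UMIs, and at 77.5, 8.48 and 61.5 CPM in rhabdomyolysis libraries. With this type alone the change was -3.66 ± 0.37 with an adjusted p of 0.00011. It had 22, 15 and 15 cells in control libraries, and the minimum was lowered to 15 cells. The same minimum was used for type 2 conventional dendritic cells, which numbered 19 in rhabdomyolysis library 1. In classical monocytes it stood at 346, 559 and 480 CPM, from 14, 6 and 8 cells, against 9.22, 18.4 and 16.2 CPM. In type 2 conventional dendritic cells it stood at 432, 620 and 614 CPM against 38.1, 33.8 and 53.1 CPM, a change of -3.67 ± 0.24 with an adjusted p of 1.7e-07. Type 1 conventional dendritic cells had less of it, 71.3, 27.0 and 56.4 CPM against 15.4, 15.8 and 4.34 CPM. Macrophage-like cells of rhabdomyolysis libraries held more of the 8 classical monocyte markers, 938 to 1227 CPM summed against 328 to 457 CPM. In macrophage-like cells with none of those markers detected the fall of Hpgd was -3.46 ± 0.29 with an adjusted p of 0.00015, and in cells with at least 6 of the 11 macrophage markers it was -3.61 ± 0.24. These narrower sets were chosen after seeing the data.

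**Figure D2:**
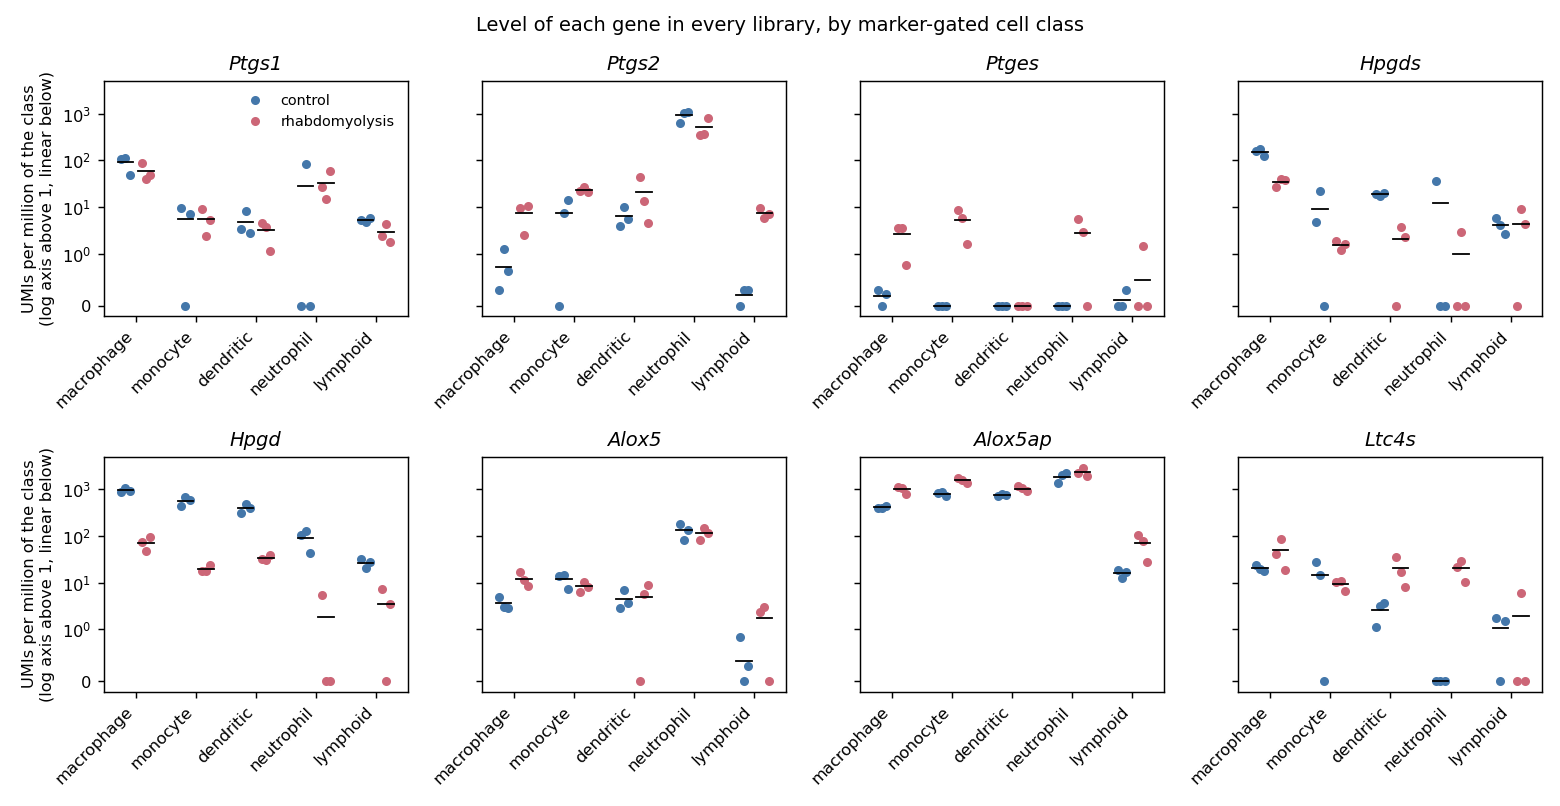
UMIs in CPM of the class (vertical axis, logarithmic above 1 and linear below) for each gene and cell class; each point is 1 library and each black line the mean of 3 libraries. Hpgd in macrophage-like cells lies between 884 and 1043 in control and between 46.9 and 95.5 in rhabdomyolysis libraries, and Alox5ap in monocyte-like cells lies between 723 and 863 against 1377 and 1747.

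Counted by cells, a smaller share of the macrophage-like cells of the rhabdomyolysis libraries had a Hpgd UMI. Each cell was thinned to 1000 UMIs so that deeper libraries did not count more cells, which left out 119 control and 29 rhabdomyolysis macrophage-like cells. A Hpgd UMI was then expected in 55.0% ± 2.8 (SD, n = 3) of control and 7.04% ± 2.1 (SD, n = 3) of rhabdomyolysis macrophage-like cells. Without thinning the shares were 84.7% ± 1.0 and 30.04% ± 8.3 (SD, n = 3). Monocyte-like cells had 37.4% ± 5.4 against 2.07% ± 0.85, and dendritic-like cells 29.1% ± 3.3 against 3.16% ± 0.17 (SD, n = 3). Lymphoid-like cells had 1.88% ± 0.27 against 0.231% ± 0.28. Free RNA was estimated at 4.7% to 6.25% of the UMIs of control lymphoid-like cells and 21.9% to 23.0% of those of control macrophage-like cells, so the lymphoid share is not a like measure of the background in macrophage-like cells. On that estimate free RNA would give 9.07% of the control and 8.85% of the rhabdomyolysis Hpgd UMIs of macrophage-like cells. The median UMI number per cell was 3595.5 and 7678 in macrophage-like and 3379 and 2990 in lymphoid-like cells of control library 1 and rhabdomyolysis library 3. Hpgds went from 15.3% ± 2.1 to 3.99% ± 0.93 of macrophage-like cells and Alox5ap from 31.7% ± 1.2 to 58.0% ± 6.2. In 2-sided exact permutation tests over the 32 pairs of gene and class, no share passed adjustment: 3 against 3 libraries cannot give a p below 0.1, and the smallest adjusted p was 0.168.

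The thinned shares did not overlap between the groups for 6 of the 8 genes in macrophage-like cells, where 49.9% of genes tested in that class did not overlap. The exceptions were Ptgs1 and Ltc4s. The count was 4 of 8 in monocyte-like cells beside 35.4% of genes, 5 of 8 in dendritic-like cells beside 33.7%, and 4 of 8 in lymphoid-like cells beside 31.5%. These percentages cover only genes that passed the filter on low counts in the class. Of the 8 genes 7, 4, 3 and 4 did in the 4 classes, so the counts and percentages are not over like genes. Hpgd was lower and Alox5ap higher in the rhabdomyolysis libraries in all 4 classes, except that Alox5ap in lymphoid-like cells overlapped when cells were thinned to 2000 UMIs or not thinned.

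Lymphoid-like cells held little Hpgd: 31.5, 20.4 and 27.3 CPM in control libraries and 7.24, 0 and 3.47 CPM in rhabdomyolysis libraries, a change of -2.92 ± 0.51 with an adjusted p of 0.0044. Free RNA at the level estimated for these cells would give 78.1% of the control and 82.8% of the rhabdomyolysis UMIs. After subtraction of free RNA too few UMIs were left for a test. In T cell-like cells the change was -2.28 ± 0.63 with an adjusted p of 0.033, which was 0.092 without rhabdomyolysis library 2 and 0.12 without library 3. In B cell-like cells 87 control UMIs stood against 0, at least 5.48-fold higher in control when 3 counts over the group are taken as the limit of 0. B cell-like cells of the rhabdomyolysis libraries numbered 41, 90 and 91.

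Alox5 encodes 5-lipoxygenase, which makes leukotriene A4, and Alox5ap encodes the membrane protein FLAP, which hands arachidonic acid to it. Alox5 was at its highest in neutrophil-like cells, at 179, 83.7 and 131 CPM in control libraries and 81.9, 146 and 116 CPM in rhabdomyolysis libraries. These ranges overlapped with each other and with no other myeloid class. The gene rose in macrophage-like cells from 4.87, 3.02 and 2.88 CPM to 17.0, 11.3 and 8.49 CPM, with every rhabdomyolysis library above every control library. The change was 1.81 ± 0.34 with an adjusted p of 0.0031. Cells with at least 1 Alox5 UMI numbered 30, 17 and 12 in control libraries and 35, 40 and 24 in rhabdomyolysis libraries. In macrophage-like cells with no classical monocyte marker the change was smaller, 1.18 ± 0.38 with an adjusted p of 0.042. Monocyte-like cells stood at 14.1, 14.6 and 7.23 CPM from 6 UMIs in all against 6.19, 10.5 and 8.17 CPM, with overlap. Alox5 overlaps Gm38880 in RefSeq.

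Alox5ap rose in each class tested that held it. In macrophage-like cells it went from 404, 407 and 447 CPM to 1123, 1054 and 809 CPM, a change of 1.33 ± 0.18 with an adjusted p of 0.00065. In monocyte-like cells it went from 831, 863 and 723 CPM to 1747, 1567 and 1377 CPM, a change of 1.08 ± 0.15 with an adjusted p of 0.00025. Every rhabdomyolysis library lay above every control library in both classes. In nonclassical monocytes alone the change was 1.27 ± 0.19 with an adjusted p of 0.00089. In dendritic-like cells it went from 728, 807 and 748 CPM to 1161, 1053 and 903 CPM, a change of 0.49 ± 0.13 with an adjusted p of 0.024. Without control library 1, 2 or 3 or rhabdomyolysis library 1 the adjusted p was 0.13, 0.071, 0.083 and 0.056, and with type 2 conventional dendritic cells alone the change was 0.39 with 0.091. Neutrophil-like cells had the highest level, 1360, 2010 and 2233 CPM against 2205, 2837 and 1953 CPM, with overlap between the groups.

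The rise of Alox5ap differed between classes. It was larger in macrophage-like than in dendritic-like cells by 0.84 ± 0.16 with an adjusted p of 0.0013, in a comparison where 16.2% of genes differed. Between macrophage-like and monocyte-like cells the difference was -0.03 ± 0.18 with an adjusted p of 0.96. None of the 8 genes passed that last test, in which 4.08% of genes did; 3 had an unadjusted p under 0.05, and with DESeq2 0 passed and 2 had one. In lymphoid-like cells Alox5ap went from 18.6, 12.7 and 17.2 CPM to 106, 76.7 and 27.8 CPM, a change of 2.07 ± 0.38 with an adjusted p of 0.0062. Free RNA would give 92.2% of these control UMIs and 73.8% of these rhabdomyolysis UMIs. After its subtraction the change was 3.47 with an adjusted p of 0.043. In T cell-like cells the values were 17.7, 13.02 and 18.1 CPM against 59.4, 55.6 and 60.9 CPM, a change of 2.02 ± 0.25 with an adjusted p of 8.3e-05. B cell-like cells showed 2.25 ± 0.60 with an adjusted p of 0.043, and rhabdomyolysis library 3 held 0 UMIs among 91 cells. The adjusted p was 0.14 to 0.45 when any library other than that one was left out, and 0.41 with DESeq2.

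Ltc4s encodes leukotriene C4 synthase, which makes the first of the cysteinyl leukotrienes. It rose in macrophage-like cells, from 24.2, 19.9 and 18.1 CPM to 41.7, 86.9 and 18.8 CPM. Library 2 of the rhabdomyolysis group was the highest and library 3 lay inside the control range. The change was 1.33 ± 0.45 with an adjusted p of 0.041. Without control library 1, 2 or 3 or rhabdomyolysis library 1 the adjusted p was 0.083, 0.12, 0.12 and 0.081, and without rhabdomyolysis library 2 the change was 0.64 with an adjusted p of 0.047. Dendritic-like cells held 2, 5 and 4 UMIs in control libraries and 8, 9 and 7 in rhabdomyolysis libraries, a ratio of summed levels of 5.97 with an exact interval of 2.82 to 13.5 for counting error. Free RNA would give 82.4% of those control UMIs and 19.7% of those rhabdomyolysis UMIs. Neutrophil-like cells held 0 against 17 UMIs, out of 74668 and 812207 UMIs of all genes. With 3 counts over the group taken as the limit of 0, the rhabdomyolysis level was at least 0.52-fold that of control, which does not show a rise. Monocyte-like cells held 8 against 68 UMIs, a ratio of summed levels of 0.53 with an exact interval of 0.26 to 1.29 for counting error. The change there was -0.71 ± 0.68 with an adjusted p of 0.52.

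By class, then, 6 of the 7 genes tested passed in macrophage-like cells beside 42.3% of all genes tested, and 2 of 4 in monocyte-like cells beside 19% of genes. The count was 3 of 3 in dendritic-like cells beside 15.7% of genes and 3 of 4 in lymphoid-like cells beside 8.31%. In T cell-like cells it was 2 of 2 beside 9.79% and in B cell-like cells 2 of 2 beside 3.39%. In NK cell-like cells no gene of the 8 passed the filter on low counts. The tested genes are those with enough UMIs in at least 1 group, which favours genes that differ. The 8 genes were also chosen with earlier results of these data known, so these counts are not a test of the set.

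**Figure D3:**
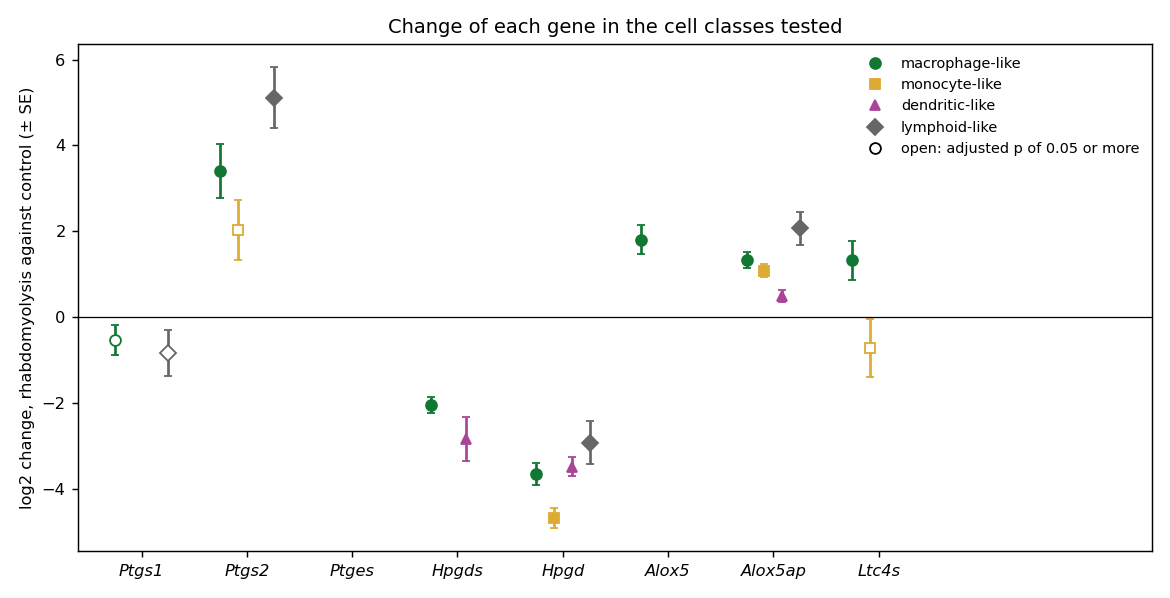
Log2 change of each gene in rhabdomyolysis against control libraries (vertical axis) for the 4 cell classes with enough cells. Error bars are the approximate errors back-calculated from the edgeR test. Filled marks have an adjusted p under 0.05 and Ptges was tested in none of the 4. Hpgd lies between -2.92 and -4.68 in every class, and Alox5ap between 0.49 and 2.07.

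Within the injured kidney the genes also varied among phagocytes. Arg1, which encodes arginase 1, marks a set of these cells and is in neither the gene set nor the marker lists; it was chosen with earlier results of these data known. Monocyte-like and macrophage-like cells of the rhabdomyolysis libraries with at least 1 Arg1 UMI (81, 83 and 98 cells) were compared with those with none (469, 788 and 695 cells), with the library as a block. Of 7 genes tested 5 passed, where 19.8% of all genes did. Hpgd was lower in cells with Arg1 in every library, at 8.44, 6.67 and 20.6 CPM against 67.4, 41.2 and 69.7 CPM, a difference of -2.21 ± 0.21 with an adjusted p of 3.1e-08. Hpgds stood at 7.50, 7.63 and 6.62 CPM against 21.3, 28.6 and 22.8 CPM, a difference of -1.69 ± 0.26 with an adjusted p of 3.9e-05. Ptgs1 stood at 21.6, 8.58 and 13.2 CPM against 69.5, 28.6 and 31.0 CPM, a difference of -1.48 ± 0.20 with an adjusted p of 8.7e-06. Ptgs2 went the other way, at 26.3, 27.6 and 22.1 CPM in cells with Arg1 against 10.4, 9.02 and 14.4 CPM, a difference of 1.19 ± 0.23 with an adjusted p of 0.00045. Ltc4s was lower by a fitted -1.18 ± 0.28 with an adjusted p of 0.0034, although in library 3 it was the higher, 14.7 against 12.4 CPM. Without rhabdomyolysis library 1 its adjusted p was 0.15, and with DESeq2 0.075. Alox5ap differed by -0.14 ± 0.09 with an adjusted p of 0.30 and Alox5 by -0.36 ± 0.29 with 0.44.

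The cells with Arg1 were more often monocyte-like: 38.3%, 48.2% and 39.8% were macrophage-like against 74.6%, 75.6% and 57.0% of the others. Neutrophil markers summed to 536, 783 and 209 CPM in them against 2001, 1418 and 1009 CPM. They were also deeper, with medians of 11904, 11691 and 13343.5 UMIs against 6554, 5534.5 and 8366. The comparison was therefore repeated in each class alone, a choice made after seeing the data. In macrophage-like cells alone Hpgd, Ptgs1 and Hpgds passed the test, at -1.66, -1.42 and -1.29 with adjusted p of 0.00054, 0.00084 and 0.011. Ptgs2 there differed by 0.47 with an adjusted p of 0.61 and Ltc4s by -1.16 with 0.12. In monocyte-like cells alone Hpgd differed by -3.66 with an adjusted p of 0.00062 and Ptgs2 by 0.97 with 0.0095. Alox5ap was lower there in the cells with Arg1, by -0.61 with an adjusted p of 6.7e-05.

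**Figure D4:**
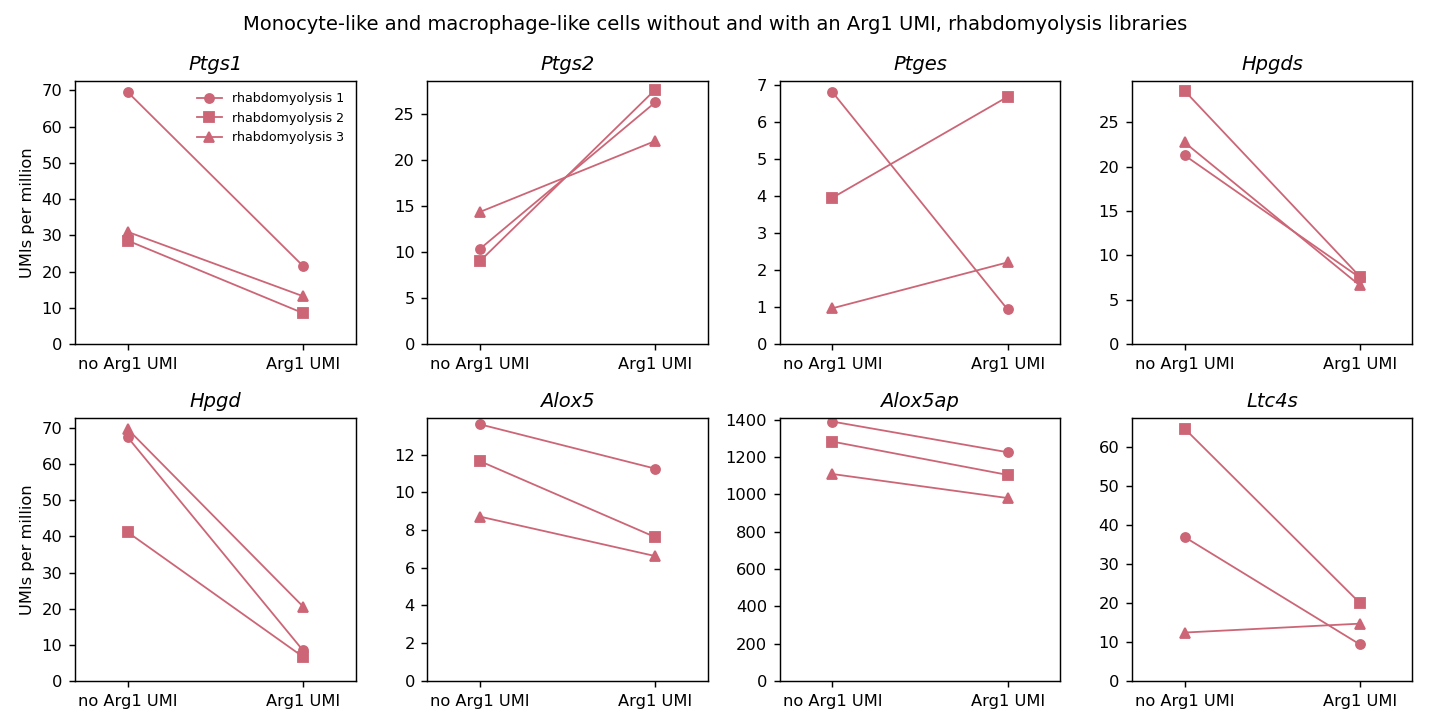
UMIs in CPM (vertical axis, each panel with its own scale from 0) in monocyte-like and macrophage-like cells without and with an Arg1 UMI; each line joins the values of 1 rhabdomyolysis library. Hpgd, Hpgds and Ptgs1 are lower and Ptgs2 is higher in the cells with Arg1 in all 3 libraries, and Ptges goes both ways.

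The rest of the pathway was read from 6 lists that hold 60 genes found in the feature lists. In macrophage-like cells 30 were tested, of which 9 rose, 7 fell and 14 did not pass, so that 53.3% passed beside 42.3% of all genes. In monocyte-like cells 21 were tested, of which 3 rose and 18 did not pass, 14.3% beside 19% of all genes. Among the 9 tested genes of phospholipases and arachidonate handling in macrophage-like cells, 3 rose and 1 fell, with a median change of 0.30 beside -0.04 over all genes. Fabp5, which carries fatty acids in the cell, rose by 3.03 and the secreted phospholipase Pla2g12a by 1.49, while the lysosomal phospholipase Pla2g15 fell by 1.80 and Lpcat3, which puts arachidonic acid back into membranes, rose by 0.47. Pla2g4a, the cytosolic phospholipase that frees arachidonic acid, did not pass in macrophage-like cells (0.30, adjusted p 0.46). In monocyte-like cells it rose by 2.02, from 18.8, 21.9 and 0 CPM to 56.3, 45.4 and 59.1 CPM, with an adjusted p of 0.010. Pla2g7, which breaks down platelet-activating factor, rose there by 2.62 and Fabp5 by 1.48, so 3 of the 8 genes of that list tested in monocyte-like cells rose, 37.5% beside 19% of all genes.

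Of the 6 prostanoid synthases tested in macrophage-like cells 2 rose and 2 fell. Tbxas1, which makes thromboxane, fell by 0.97 and Cbr1, a carbonyl reductase of prostaglandins, fell by 0.57. Ptges3 and Ptges2, the other prostaglandin E2 synthases, rose by 0.92 and 0.72. Of 8 genes of inactivation and transport tested, 2 rose and 2 fell: Abcc1, which exports leukotriene C4, rose by 1.001 and Ptgr1, which inactivates leukotriene B4, by 0.86, while the epoxide hydrolase Ephx1 fell by 1.77 and the prostaglandin reductase Zadh2 by 0.97. Among the 4 genes tested from the list of leukotriene processing, the dipeptidase gene Dpep3 rose by 5.58, from at most 0.304 CPM in a control library to 9.89, 12.8 and 5.15 CPM. Ggt5, which turns leukotriene C4 into D4, fell by 1.01. Whether Dpep3 acts on leukotrienes was not measured here, and Dpep1 and Dpep2 of that list were not tested. Lta4h, which makes leukotriene B4, did not pass (-0.09, adjusted p 0.79). Of the 14 receptor genes 3 were tested: Ltb4r1, the leukotriene B4 receptor, rose by 2.15, from 8.36, 8.89 and 4.42 CPM to 32.2, 32.0 and 27.5 CPM, and Cysltr1, a receptor of cysteinyl leukotrienes, fell by 0.98, from 121, 133 and 102 CPM to 55.1, 44.1 and 71.0 CPM. In lymphoid-like cells 2 of 25 pathway genes tested fell and none rose, 8% beside 8.31% of all genes. In dendritic-like cells 5 of 22 rose and 1 fell, 27.3% beside 15.7% of all genes. None of the 6 genes of other lipoxygenases was tested in any of these classes.

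The genes most like each of the 8 across 42 sums of a class in a library, by Pearson's r of log2(CPM + 10) over 11915 genes, are given as a description. The sums share libraries, classes and depth. For Hpgd they were Nrp1 (r = 0.92), Abca9 (0.90) and Sirpb1a (0.90), and for Hpgds 2610203C22Rik (0.92), Zfp704 (0.92) and Mir99ahg (0.91). For Ptgs1 they were Neurl1a (0.84), Col14a1 (0.83) and Slco2b1 (0.82). For Ptgs2 they were Hcar2 (0.92), Arg2 (0.91) and Hdc (0.91), and Hcar2 (0.89) was also among those of Alox5, after Agap1 (0.91) and Crispld2 (0.90). Alox5ap was most like Ifitm2 (0.96), Il13ra1 (0.94) and Havcr2 (0.94), Ltc4s like Oas2 (0.84), Fcgr3 (0.82) and 0610040J01Rik (0.82), and Ptges like Epb41l1 (0.84), Folr2 (0.76) and Map3k6 (0.72). Among the 8 genes themselves the highest r was that of Ptgs2 with Alox5, 0.80, followed by Alox5ap with Ltc4s, 0.71, Ptgs1 with Hpgds, 0.69, and Hpgds with Hpgd, 0.68. The lowest was that of Ptgs2 with Hpgd, -0.25.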

How the data were processed

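The deposited counts are UMI counts per gene and barcode, made by the authors with Cell Ranger 4 per the file headers and with the genome build mm10 per the submitters' processing notes. The 6 antibody tags in the feature lists were not used here. Per the labels' protocols, kidneys were digested with collagenase and DNase, red cells were lysed, and live CD45+ cells were sorted. Barcodes with at least 500 UMIs, at least 200 genes and at most 15% mitochondrial UMIs were kept when their counts differed from free RNA (barcodes of up to 100 UMIs) in a multinomial test with 10000 draws at an adjusted p of 0.001. Doublets were removed at 0.8% per 1000 cells by likeness to simulated doublets, and barcodes with under 0.1% Malat1 were left out. Cells were gated by 159 markers in 20 lists: a marker counted as detected when its UMIs exceeded free RNA at 20% of the cell, and at least 3 had to be detected. Counts were summed per library and class of at least 20 cells, or 15 for nonclassical monocytes and for type 2 conventional dendritic cells alone. They were tested with edgeR 4.0.16 (TMM, filterByExpr, quasi-likelihood, Benjamini-Hochberg) in R 4.3.3, with 3 libraries a group and no covariate, and differences between classes were tested with the library as a block. The scripts were tested on simulated data. Alternatives were DESeq2 1.42.0, RLE size factors, other gates and filters, and leaving out each library. Intervals and limits of 0 (3 counts) cover counting error only. The 8 genes, the marker and pathway lists and the tests were chosen with earlier results of these data known. Named genes of the pathway are those that passed in macrophage-like or monocyte-like cells, up to 4 a list and class; Lta4h was added after its values were seen. The 3 most alike genes by r are named for each of the 8. Promoters are RefSeq's, from GRCm38.p6.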

Additional observations from a re-analysis of the deposited data

Results flagged for a closer look

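The change with rhabdomyolysis differed between cell classes for 3 pairs of gene and classes, by a test of the difference itself. The change of Alox5ap was larger in macrophage-like than in dendritic-like cells by 0.84 ± 0.16 on the log2 scale, with an edgeR adjusted p of 0.0013. Each ± here is the approximate error back-calculated from the test. It was smaller in macrophage-like than in lymphoid-like cells, with a difference of -0.814 ± 0.27 and an adjusted p of 0.032, which was 0.054 to 0.17 when any library but rhabdomyolysis library 3 was left out. Free RNA would give 92.2% of the control and 73.8% of the rhabdomyolysis UMIs of Alox5ap in lymphoid-like cells. The change of Hpgds was lower in macrophage-like than in lymphoid-like cells, with a difference of -2.4 ± 0.63 and an adjusted p of 0.0080, where lymphoid-like cells held 50 and 11 UMIs of the gene. Without rhabdomyolysis library 2 it was -1.88 with an adjusted p of 0.090.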

How the results depend on the processing

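The call or its absence held in 662 of the gene values recomputed under an alternative, 10 gained a call, 35 lost one and none reversed after a call. Among values that did not pass, the direction did not always hold. For Ltc4s in monocyte-like cells the alternatives ran from -1.09 to 0.56. In macrophage-like cells Hpgd (-3.88 to -3.36), Hpgds (-2.14 to -1.89), Alox5ap (1.22 to 1.48), Alox5 (1.18 to 2.10) and Ptgs2 (2.96 to 4.01) passed in each of the 17 to 19 alternatives that gave a value, and so did Hpgd in monocyte-like and dendritic-like cells. Ptgs2 had no value in macrophage-like cells with no classical monocyte marker, nor after subtraction of free RNA. It did not pass the filter on low counts there, so its rise was not checked in those settings. The number of the 8 genes that passed in T cell-like cells was 2, and 1 to 2 when each library was left out in turn. In NK cell-like cells it was 0, and 1 with no filter on low counts and 1 with doublets kept. In B cell-like cells it was 2, but 0 with DESeq2, 0 with a gate margin of 0.2, where none of the 8 passed the filter on low counts and so none was tested, and 0 to 2 with a library left out. For the difference between macrophage-like and monocyte-like cells it was 0, but 1 with RLE size factors (Hpgd 0.88, adjusted p 0.026) and 0 to 1 with a library left out; the median over all genes was -0.18 with TMM and -0.03 with RLE. Against dendritic-like cells it was 1, but 2 with a gate of 4 markers and 1 to 3 with a library left out. Against lymphoid-like cells it was 2, but 1 with DESeq2 and 0 to 2 with a library left out. For the Arg1 comparison it was 5, and 3 in macrophage-like and 3 in monocyte-like cells alone, both added after seeing the data, and 4 to 5 with a library left out. The cause of these shifts was not tested. Leaving out 1 library moved the number of all genes called from 4299 to between 2733 and 5886 in macrophage-like cells, from 1231 to between 660 and 965 in monocyte-like cells, from 1058 to between 654 and 1152 in dendritic-like cells and from 774 to between 313 and 930 in lymphoid-like cells. It was 1320 in lymphoid-like cells with no filter, and 693 with DESeq2 against 1710 in the Arg1 comparison. With the replicate block, which pairs libraries by number, the counts of the 8 genes were the same in each class, and 4284, 1175, 975 and 591 genes passed in the 4 classes. Same-numbered libraries had correlations of 0.109, 0.165 and 0.045 in macrophage-like cells, 0.056, 0.0089 and 0.023 in lymphoid-like cells and 0.065, 0.044 and 0.069 in all called cells. In all called cells each library correlated best with its own number, a hint from the data. The labels tie no number to a shared animal or day and not every value is over 0.1, so the libraries were not treated as pairs. With the gate of 4 markers the change within monocyte-like, dendritic-like and neutrophil-like cells had no value, since libraries fell under 20 cells, and the differences of monocyte-like and dendritic-like from macrophage-like cells rest on 4 libraries each. Depth limits Ptges, at 5 control UMIs, and Ptgs2 outside neutrophil-like cells.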
